A study of Mus musculus with 8 samples.

Results

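The genes that encode the pore-forming subunits of voltage-gated potassium, sodium and calcium channels, together with the sodium channel beta subunits, were followed across 8 RNA-seq libraries of mouse P19 cells. Members were chosen by symbol: Kcna, Kcnb, Kcnc, Kcnd, Kcnh or Kcnq followed by a number, Scn followed by a number and the letter a or b, and Cacna1 followed by a letter from a to i. The rule found 53 members among the 37558 genes of the table, namely 30 potassium channel genes, 14 sodium channel genes (10 alpha and 4 beta subunits) and 9 calcium channel genes. P19 is an embryonal carcinoma line that can be directed into neurons or muscle in culture. The cells carried a lentivirus for GFP, for MyoD, for NeuroD2, for MD(ND2bHLH), a chimera in which MyoD has the basic helix-loop-helix (bHLH) segment of NeuroD2 in place of its own, or for a mutant of that chimera labelled WC or WCS, whose changes the labels leave undefined. Further cultures received the chimera or WCS at a multiplicity of infection (MOI) of 100, and no MOI is given for the other 6 libraries. Every culture, the GFP control included, was infected with polybrene and later moved to Neurobasal medium with B27 supplement, so the control is also a culture in neuronal medium. Each group had 1 library, and the labels name neither the promoter of the lentivirus nor whether clones or pools of cells were used.

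A neuron fires when voltage-gated sodium channels open and depolarise the membrane, and it recovers when voltage-gated potassium channels open and repolarise it. Potassium channel families differ in the current they carry: Kcnd genes give a transient current that delays firing, Kcnc genes a fast current that allows rapid firing, Kcnq genes a slow current that holds excitability down, and Kcnh genes the slowly gated ether-a-go-go currents. Calcium channels couple voltage to transmitter release (Cacna1a, Cacna1b), to gene regulation and contraction (Cacna1c, Cacna1d) and to low-threshold burst firing (Cacna1g, Cacna1h, Cacna1i). Skeletal muscle uses its own forms, among them Scn4a and Cacna1s, the last of which lies outside the symbol rule.

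The libraries held 26410500 to 43984066 counts. Levels are CPM, counts brought to the same library size with TMM factors, and 3 counts, the floor that stands in for a count of 0, correspond to 0.073 to 0.115 CPM. Myod1 and Neurod2 followed the labels, with Myod1 at 296 CPM in MyoD against 0.681 in GFP and Neurod2 at 180 CPM in NeuroD2 against 2.5 in GFP. Pluripotency markers of P19 cells (Pou5f1, Nanog, Sox2, Utf1, Lin28a) were all at 1 CPM or more in every library, with a summed level of 2650 CPM in GFP, 1140 in MyoD, 883 in the chimera, 1080 in WC, 1060 in WCS and 662 in NeuroD2, and at MOI 100 of 389 in the chimera and 424 in WCS. A list of 10 neuron markers summed to 364 CPM in GFP, 265 in MyoD, 740 in the chimera, 1930 in WC, 2180 in WCS and 3470 in NeuroD2, and at MOI 100 to 2500 in the chimera and 5300 in WCS. A list of 10 skeletal muscle markers summed to 6320 CPM in MyoD, 578 in the chimera and 993 in the chimera at MOI 100, against 17.2 to 28.4 CPM in the other 5 libraries. Glia, fibroblast and endothelium markers summed to 43.1 to 114 CPM, 21.6 to 106 CPM and 1.49 to 3.5 CPM. The 5 smooth muscle markers summed to 241 CPM in GFP, 1120 in MyoD, 176 in the chimera, 103 in the chimera at MOI 100 and 31.4 to 96.6 CPM in the other 4 libraries, lowest in NeuroD2. They went both ways in MyoD against GFP, with 2 at least 4-fold higher (Acta2 and Des) and 2 at least 4-fold lower (Tagln and Cnn1). Acta2 went from 102 to 888 CPM and Tagln from 108 to 5.95 CPM. In such bulk samples a change in the number of cells that express a channel and a change in RNA per cell cannot be told apart. The non-coding gene Rn7s6 separated the libraries differently, since GFP, MyoD, WC and WCS had 13 to 16.3 CPM of it and the other 4 had 0.565 to 1.28 CPM, and its part in the results was not tested.

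All 53 members had a count in at least 1 library. The highest library reached 5 CPM or more for 28 members, 1 to 5 CPM for 15, and less than 1 CPM for 10, which were Kcna2, Kcna4, Kcna10, Kcnh5, Kcnq5, Scn4b, Scn7a, Scn10a, Scn11a and Cacna1f. Of the 53, 24 reached 1 CPM in GFP and 24 in MyoD, against 37 in NeuroD2 and 36 in WCS at MOI 100. The chimera, WC, WCS and the chimera at MOI 100 lay between, with 32, 32, 31 and 33. A mean of at least 0.5 CPM over the 8 libraries, required for the counts of fold differences below, was met by 43 members, the same filter leaving 15419 genes in all. The members nearest to that limit were Kcnh8 at 0.567 and Kcna7 at 0.618 CPM inside it and Kcnh5 at 0.278 and Scn11a at 0.241 CPM outside it. Among the 43, the highest library was NeuroD2 for 13 members and WCS at MOI 100 for 13, while over all 15419 genes these were the highest library for 7.07% and 20.4%.

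**Figure D1:**
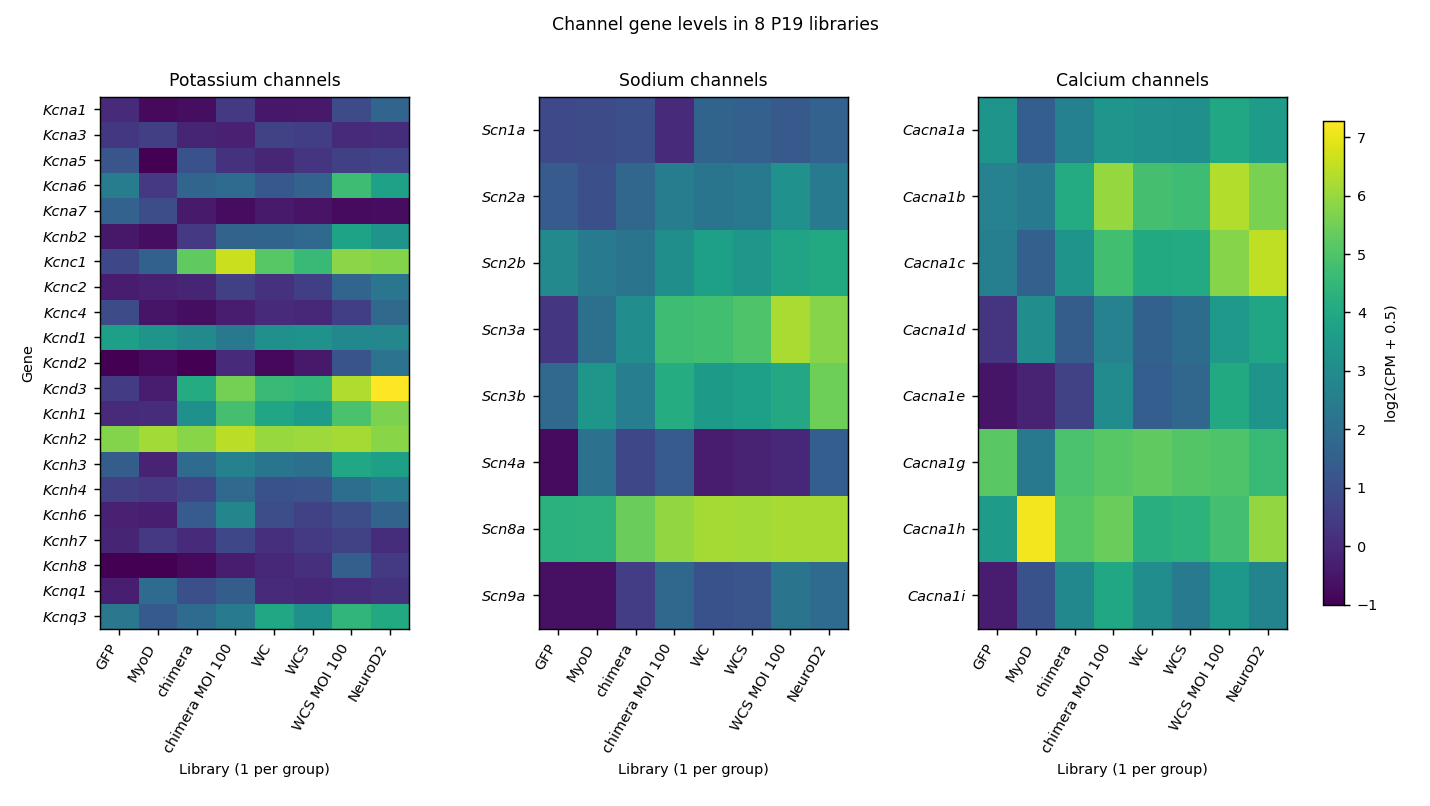
Heat map of log2(CPM + 0.5) for 37 of the 43 channel genes with a mean of at least 0.5 CPM, by class, with 1 library per column. The Kcnd3 row runs from its lowest level in MyoD (0.269 CPM) to its highest in NeuroD2 (155 CPM), while the Kcnh2 row stays between 52.6 and 85.9 CPM.

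Channel genes of all 3 classes were higher with NeuroD2 than with GFP, among them Kcnd3, Kcnh1, Kcnc1, Scn3a, Cacna1c and Cacna1e, whereas with MyoD few were. Calls in this and the other comparisons of single libraries are at least 4-fold on log2(CPM + 0.5), with no test, because each group has 1 library. In NeuroD2 18 of 43 members were at least 4-fold higher than in GFP, where 5.28% of all genes were, and 1 member was at least 4-fold lower, against 1.98% of all genes. Of the 18, Cacna1b, Cacna1h, Kcnc2, Kcnh3, Scn4a and Scn9a did not reach 8-fold, with log2 ratios of 2.23 to 2.95. The 18 were 8 of 25 potassium, 4 of 10 sodium and 6 of 8 calcium channel genes, and the median log2 ratio was 1.86 over members and 0.03 over all genes. Beside these genes, 3 of 5 pluripotency and 4 of 5 smooth muscle markers were at least 4-fold lower in NeuroD2 than in GFP, and their part in the result was not tested. In MyoD 4 members were at least 4-fold higher, where 3.32% of all genes were, and 3 were at least 4-fold lower, against 1.1% of all genes, with a median of -0.17 over members and -0.02 over all genes. The 4 were Scn4a, Kcnq1, Cacna1d and Cacna1h, and the 3 were Kcna5, Kcna6 and Cacna1g. With a pseudocount of 2 CPM 1 was higher and 1 lower in MyoD, and with an 8-fold rule 1 and 0. Each comparison with GFP uses the same GFP library, so these comparisons are not independent of each other. Set directly against MyoD, NeuroD2 had 21 members higher and 0 lower by 4-fold or more, where 5.25% and 3.03% of all genes met the rule. The number higher was 12 with a pseudocount of 2 CPM and 11 with an 8-fold rule. Among the 43 members, 13 of 25 potassium, 3 of 10 sodium and 5 of 8 calcium channel genes were on the higher side.

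**Figure D2:**
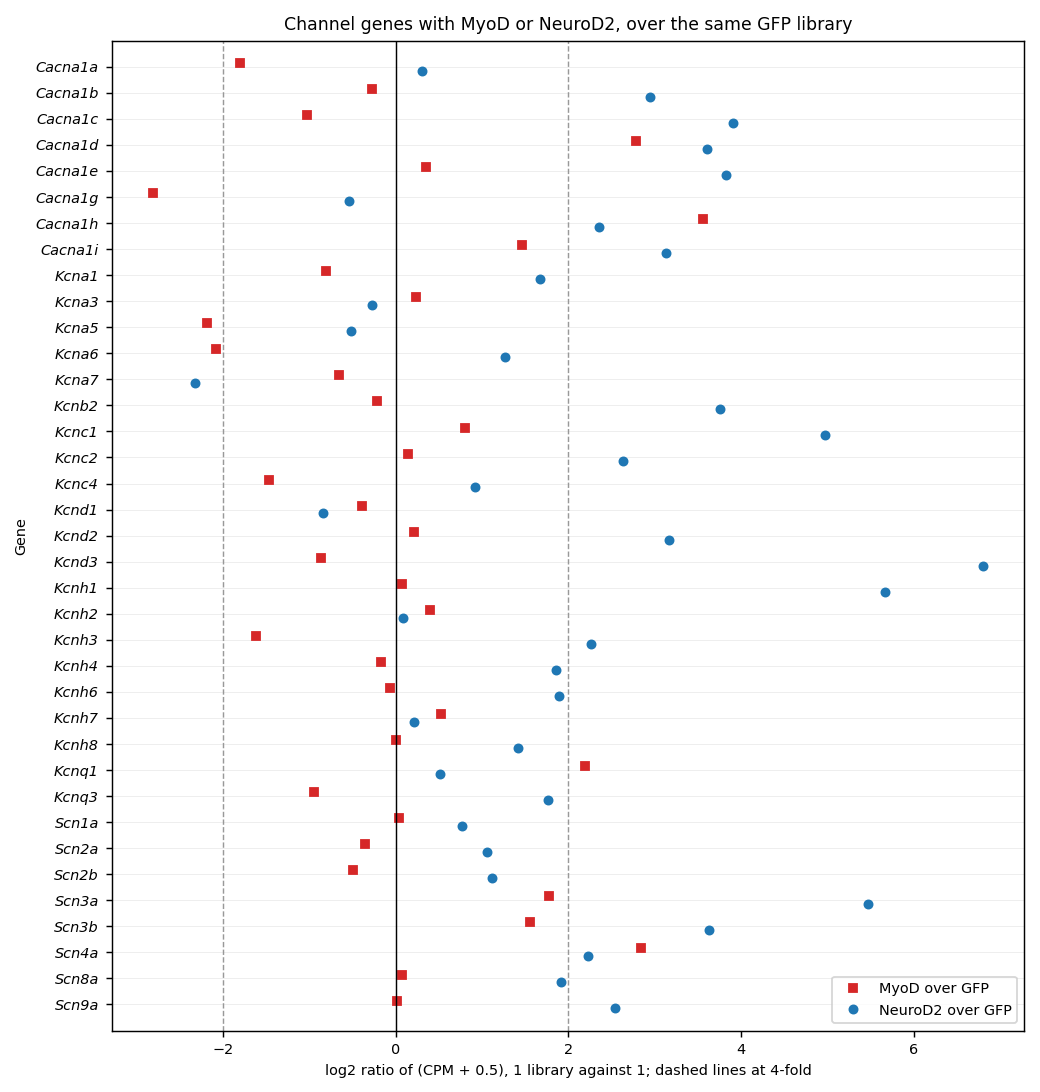
Log2 ratio of (CPM + 0.5) of MyoD (red squares) and NeuroD2 (blue circles) over the shared GFP library for 37 of the 43 channel genes, each point 1 library against 1, with dashed lines at 4-fold. Kcnd3, Kcnh1 and Scn3a lie farthest to the right in NeuroD2, and Cacna1h, Scn4a and Cacna1d in MyoD.

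Kcnd3 (ENSMUSG00000040896, chromosome 3), which encodes a pore subunit of the transient A-type potassium current, had the highest ratio of NeuroD2 to GFP among the 43 members on the log2(CPM + 0.5) scale. It stood at 0.9 CPM in GFP, 0.269 in MyoD, 16.5 in the chimera, 23.3 in WC, 22.1 in WCS and 155 in NeuroD2, and at MOI 100 at 46.1 in the chimera and 78.5 in WCS. The NeuroD2 library was 172-fold higher (95% interval 125 to 245) than GFP and 577-fold higher (280 to 1440) than MyoD. These intervals, exact and conditional on the 2 counts, cover counting error only, since reads copied by PCR, without molecular identifiers, do not count molecules and no group had another culture. GFP and MyoD were the only libraries under 1 CPM, and the 6 libraries of NeuroD2 or a chimera construct were all at 16.5 CPM or more. The antisense gene Kcnd3os overlaps 1.7% of the Kcnd3 exons and had 0 to 42 counts in a library. Of its relatives, Kcnd1 stood at 12.2 CPM in GFP, 9.22 in MyoD and 6.64 in NeuroD2, with 7.27 in the chimera, 8.34 in WC, 9.07 in WCS, 4.62 in the chimera at MOI 100 and 6.8 in WCS at MOI 100. Kcnd1 was thus highest in the GFP library. Kcnd2 had 0 counts in GFP and reached 3.98 CPM in NeuroD2, 54.6-fold higher (18.2 to 269) with GFP set to the floor. It is a member named here after its values were seen.

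The bases before the start sites of Kcnd3, Cacna1b, Cacna1c and Kcnc1 are shown because these channel genes of different classes were all higher in NeuroD2 than in GFP, and bHLH factors bind E-boxes, short motifs of the form CANNTG. MyoD and NeuroD2 are both known to bind CAGCTG. MyoD is known to favour CAGGTG besides, and NeuroD2 to favour CAGATG. The sequences are the 250 bases before a RefSeq start site on GRCm38.p6, 5′ to 3′ on the gene's strand, with any of these 3 motifs, on either strand, in capitals.
Kcnd3, chr3:105451640-105451889, plus strand: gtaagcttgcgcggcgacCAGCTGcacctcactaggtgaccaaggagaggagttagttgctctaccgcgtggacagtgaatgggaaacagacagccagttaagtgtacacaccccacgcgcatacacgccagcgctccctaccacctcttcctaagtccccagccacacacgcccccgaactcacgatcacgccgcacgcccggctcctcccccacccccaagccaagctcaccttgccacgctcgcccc
Cacna1b, chr2:24763153-24763402, minus strand: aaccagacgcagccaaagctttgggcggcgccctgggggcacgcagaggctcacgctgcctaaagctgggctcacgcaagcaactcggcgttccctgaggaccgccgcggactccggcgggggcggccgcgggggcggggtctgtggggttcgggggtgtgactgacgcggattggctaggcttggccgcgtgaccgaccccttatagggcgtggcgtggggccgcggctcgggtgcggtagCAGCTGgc
Cacna1c, chr6:119108496-119108745, minus strand, 1 of 3 start sites: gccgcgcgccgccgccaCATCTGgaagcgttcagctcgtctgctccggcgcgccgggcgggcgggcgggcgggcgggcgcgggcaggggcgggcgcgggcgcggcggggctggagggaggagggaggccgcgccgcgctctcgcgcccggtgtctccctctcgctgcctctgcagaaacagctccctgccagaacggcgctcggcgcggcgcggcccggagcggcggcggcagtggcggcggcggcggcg
Kcnc1, chr7:46396218-46396467, plus strand: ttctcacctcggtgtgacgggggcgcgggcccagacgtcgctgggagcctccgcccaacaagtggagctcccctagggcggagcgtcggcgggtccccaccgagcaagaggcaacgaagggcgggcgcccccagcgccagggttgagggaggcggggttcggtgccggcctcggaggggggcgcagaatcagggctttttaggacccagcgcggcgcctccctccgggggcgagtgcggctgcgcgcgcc
Kcnd3 holds a CAGCTG at position -232 from the start site and Cacna1b a CAGCTG at -8. This Cacna1c start has a CAGATG, read as CATCTG, at -233, while the Kcnc1 stretch holds none of the 3 motifs. Past the printed bases this Cacna1c start also has a CAGGTG at position 23. The other Cacna1c starts have a CAGATG at -217 and a CAGCTG at 28. RefSeq windows from 250 bases before to 50 after a start were found for 36 of the 53 members, 45 windows in all. CAGATG, in either orientation, was in 17.8% of the member windows and 17.2% of all 32851 windows. CAGGTG was in 22.2% against 20.2%, and CAGCTG, which is its own reverse complement, in 26.7% against 16.3%. Of the 12 member windows with CAGCTG, 4 are of Kcnc2, and 3 of those overlap and hold the same copy. Without the Kcnc2 windows, a choice made after seeing the data, the share was 19.5%. These are matches of letters and no measurement of binding.

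Other potassium channel genes were higher with NeuroD2 as well. Kcnc1, a subunit of the channel that allows rapid repolarisation, stood at 1.22 CPM in GFP, 2.5 in MyoD, 37.4 in the chimera, 34.6 in WC, 23.7 in WCS and 53.3 in NeuroD2, and at MOI 100 at 97.1 in the chimera and 57.2 in WCS. NeuroD2 was 43.8-fold higher (33.1 to 59.3) than GFP, and the chimera at MOI 100 was the highest library of all 8. Kcnb2, a delayed-rectifier subunit, stood at 0.219 CPM in GFP, 0.115 in MyoD, 0.791 in the chimera, 2.7 in WC, 3.02 in WCS and 9.19 in NeuroD2, and at MOI 100 at 2.6 in the chimera and 13.5 in WCS. It was 42-fold higher (21.8 to 92.8) in NeuroD2 than in GFP.

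Kcna6, a low-threshold delayed rectifier, was low in MyoD and high in WCS at MOI 100 and in NeuroD2. It stood at 5.01 CPM in GFP, 0.806 in MyoD, 2.75 in the chimera, 1.93 in WC, 2.51 in WCS and 12.8 in NeuroD2, and at MOI 100 at 3.26 in the chimera and 25.6 in WCS. MyoD was 6.21-fold lower (3.96 to 10.3) than GFP. The antisense model Gm26673 overlaps 39.6% of the Kcna6 exons, and without a stated strand setting reads of such pairs cannot be told apart. The other Kcna genes above 1 CPM stayed low, with Kcna1 at 2.73 CPM in NeuroD2, Kcna3 at 1.03 CPM in WC, Kcna5 at 1.78 CPM in GFP and Kcna7 at 2.53 CPM in GFP as the highest values. Kcna5 had 0 counts in MyoD, 15.4-fold lower (5.07 to 76.5) than in GFP with MyoD set to the floor. Kcna7 was the member lower in NeuroD2, 24.1-fold lower (8.03 to 119) than in GFP, and it was at 0.094 to 0.264 CPM in the 6 libraries other than GFP and MyoD.

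Kcnq3, which encodes a subunit of the slow M-current channel, was lowest in MyoD and highest in WCS with the MOI 100 label. Its level was 4.35 CPM in GFP, 2.04 in MyoD and 15.9 in NeuroD2, with 3.24 in the chimera, 15.2 in WC, 8.42 in WCS, 5 in the chimera at MOI 100 and 21.4 in WCS at MOI 100. It was 3.66-fold higher (3.07 to 4.37) in NeuroD2 than in GFP, under the 4-fold rule, and 7.83-fold higher (5.88 to 10.6) than in MyoD. Kcnq1, the cardiac and epithelial member, reached 3.23 CPM in MyoD, 10.2-fold higher (5.65 to 20) than in GFP, and is named here after its values were seen. The 8 cardiac muscle markers summed to 456 CPM in MyoD, 30.6 in the chimera and 14.1 or less in the other 6 libraries. Myh7 at 346 CPM and Myh6 at 102 CPM made up most of the MyoD sum. Of 5 measured markers of this list, 3 (Myh6, Myh7 and Gata4) were at least 4-fold higher in MyoD than in GFP and 0 lower. Tnni3 was at 1.15 CPM in MyoD against 3.19 in GFP. The part of these markers in the Kcnq1 level was not tested.

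Among the ether-a-go-go genes, Kcnh2 varied little across the libraries and Kcnh1 much. Kcnh2, the gene of the rapid delayed rectifier of the heart, was already present in GFP and stood at 52.6 CPM in GFP, 69.7 in MyoD, 55.8 in the chimera, 63.6 in WC, 65.9 in WCS and 56.1 in NeuroD2, and at MOI 100 at 85.9 in the chimera and 70.9 in WCS. Its NeuroD2 to GFP ratio was 1.07 (0.999 to 1.14). Kcnh1, a channel gene of the brain, stood at 0.486 CPM in GFP, 0.538 in MyoD and 49.6 in NeuroD2, with 8.36 in the chimera, 14.6 in WC, 11.5 in WCS, 28 in the chimera at MOI 100 and 29.3 in WCS at MOI 100. NeuroD2 was 102-fold higher (65.8 to 168) than GFP, while MyoD and GFP lay within counting error of each other, with a ratio of 1.11 (0.516 to 2.3). Kcnh3, a forebrain member of the family, stood at 2.21 CPM in GFP, 0.384 in MyoD, 3.2 in the chimera, 4.17 in WC, 3.7 in WCS and 12.5 in NeuroD2, and at MOI 100 at 5.66 in the chimera and 14.7 in WCS. It was 5.64-fold higher (4.47 to 7.17) in NeuroD2 than in GFP and 32.5-fold higher (17.5 to 68.3) than in MyoD. Kcnh6, a relative of Kcnh2, stood at 0.34 CPM in GFP, 0.307 in MyoD and 2.62 in NeuroD2, with 2.07 in the chimera, 1.48 in WC, 1.05 in WCS, 6.46 in the chimera at MOI 100 and 1.5 in WCS at MOI 100. The chimera at MOI 100 was its highest library, 19-fold higher (11 to 35.4) than GFP. Among the potassium channel genes between 1 and 5 CPM not yet given, the highest values were Kcnc2 at 4.26 CPM in NeuroD2, Kcnc4 at 3.11 CPM in NeuroD2, Kcnh4 at 4.86 CPM in NeuroD2, Kcnh7 at 1.25 CPM in the chimera at MOI 100 and Kcnh8 at 2.32 CPM in WCS at MOI 100.

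Sodium channel alpha subunits carry the rising phase of the action potential, and both leading neuronal forms were higher in NeuroD2. Scn8a, the main form at the axon initial segment of mature neurons, was present in every library and stood at 19 CPM in GFP, 20 in MyoD, 41.1 in the chimera, 71.7 in WC, 69.2 in WCS and 72.7 in NeuroD2, and at MOI 100 at 60.2 in the chimera and 72.6 in WCS. It was 3.82-fold higher (3.52 to 4.16) in NeuroD2 than in GFP, just under the 4-fold rule, while the MyoD to GFP ratio was 1.05 (0.942 to 1.18). Scn3a, the form of embryonic neurons, stood at 0.73 CPM in GFP, 3.69 in MyoD and 54.1 in NeuroD2, with 7.91 in the chimera, 26.8 in WC, 31.4 in WCS, 25.5 in the chimera at MOI 100 and 74.6 in WCS at MOI 100. NeuroD2 was 74.1-fold higher (51.7 to 110) than GFP, and MyoD was also 5.05-fold higher (3.32 to 7.89), although it stayed under 4-fold on the log2(CPM + 0.5) scale. Scn2a, another brain form, stood at 2.09 CPM in GFP, 1.54 in MyoD, 2.86 in the chimera, 4.14 in WC, 4.59 in WCS and 4.89 in NeuroD2, and at MOI 100 at 5.17 in the chimera and 8.65 in WCS. It moved less, with NeuroD2 2.34-fold higher (1.78 to 3.1) than GFP.

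Scn4a, the skeletal muscle form of the sodium channel, was higher than GFP in both the MyoD and the NeuroD2 library, and is named here after its values were seen. Its highest level was 3.76 CPM in MyoD, 38.7-fold higher (14.6 to 145) than GFP, and NeuroD2 at 2.31 CPM was 23.7-fold higher (8.83 to 89.6). The 2 libraries differed by less than 2-fold, with a fold of 1.63 (1.18 to 2.26). In NeuroD2 the skeletal muscle markers summed to 17.4 CPM against 28.4 in GFP. Of these 10 markers, 1 was at least 4-fold higher in NeuroD2 than in GFP and 1 lower, where 5.28% and 1.98% of all genes were. Myh3 went from 0.511 to 6.29 CPM and Tnnt1 from 15.1 to 2.59 CPM. The other alpha genes between 1 and 5 CPM were highest with Scn1a at 2.7 CPM in WC and Scn9a at 4.04 CPM in WCS at MOI 100.

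Of the sodium channel beta subunits, single-pass proteins that modulate gating and cell adhesion, Scn3b was past 4-fold in NeuroD2 and Scn2b was not. Scn3b stood at 3.06 CPM in GFP, 9.91 in MyoD, 5.31 in the chimera, 10.8 in WC, 12.3 in WCS and 43.6 in NeuroD2, and at MOI 100 at 16.9 in the chimera and 15.3 in WCS. It was 14.2-fold higher (11.8 to 17.2) in NeuroD2 and 3.23-fold higher (2.6 to 4.03) in MyoD than in GFP. Scn2b stood at 6.93 CPM in GFP, 4.8 in MyoD and 15.7 in NeuroD2, with 4.07 in the chimera, 12.3 in WC, 9.92 in WCS, 8.23 in the chimera at MOI 100 and 13.8 in WCS at MOI 100. It was 2.26-fold higher (1.94 to 2.63) in NeuroD2.

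Calcium channel genes of the low-threshold (T-type) family differed in the size of their change, with Cacna1h higher and Cacna1g lower than GFP in MyoD. In NeuroD2 these genes differed from GFP in the same directions, but less. Cacna1h stood at 11.5 CPM in GFP, 141 in MyoD, 33.8 in the chimera, 17.9 in WC, 19.8 in WCS and 60.7 in NeuroD2, and at MOI 100 at 41.8 in the chimera and 27.7 in WCS. MyoD was 12.2-fold higher (11.1 to 13.5) and NeuroD2 5.28-fold higher (4.77 to 5.86) than GFP, and MyoD was the highest library. Cacna1g stood at 35.2 CPM in GFP, 4.57 in MyoD and 24 in NeuroD2, with 29.9 in the chimera, 37.7 in WC, 33.2 in WCS, 34.8 in the chimera at MOI 100 and 31.5 in WCS at MOI 100. MyoD was 7.7-fold lower (6.38 to 9.36) and NeuroD2 1.46-fold lower (1.34 to 1.6) than GFP, while the other 6 libraries were within 24 to 37.7 CPM. Cacna1i stood at 0.268 CPM in GFP, 1.61 in MyoD, 6.78 in the chimera, 7.8 in WC, 4.72 in WCS and 6.22 in NeuroD2, and at MOI 100 at 15.2 in the chimera and 10.1 in WCS. It was 23.2-fold higher (12.7 to 47.4) in NeuroD2 and 57-fold higher (31.5 to 115) in the chimera at MOI 100 than in GFP.

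The presynaptic calcium channel genes were split. Cacna1b, the N-type channel of transmitter release, stood at 5.89 CPM in GFP, 4.8 in MyoD, 16.6 in the chimera, 27.9 in WC, 25.9 in WCS and 48.7 in NeuroD2, and at MOI 100 at 62.1 in the chimera and 80.4 in WCS. NeuroD2 was 8.28-fold higher (7.22 to 9.53) than GFP, whereas the MyoD to GFP ratio of 0.816 (0.652 to 1.02) was within counting error of 1. Cacna1a, the P/Q-type channel, stood at 9.24 CPM in GFP, 2.3 in MyoD and 11.5 in NeuroD2, with 5.73 in the chimera, 8.63 in WC, 8.49 in WCS, 9.79 in the chimera at MOI 100 and 15.1 in WCS at MOI 100. It was 4.01-fold lower (3.05 to 5.36) in MyoD, not past 4-fold on the log2(CPM + 0.5) scale, and NeuroD2 and GFP differed by 1.24-fold (1.07 to 1.45). Cacna1e, the R-type channel, stood at 0.195 CPM in GFP, 0.384 in MyoD, 1.02 in the chimera, 2.25 in WC, 2.85 in WCS and 9.33 in NeuroD2, and at MOI 100 at 7.53 in the chimera and 15.9 in WCS. NeuroD2 was 47.9-fold higher (24 to 112) than GFP.

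Among the members, both L-type genes above 1 CPM were higher in NeuroD2, and Cacna1d alone of them in MyoD. Their channels link depolarisation to contraction and gene regulation. The skeletal muscle form Cacna1s, outside the symbol rule, was at 0.0973 CPM in GFP, 31.4 in MyoD and 0.769 in NeuroD2. Cacna1c stood at 5.45 CPM in GFP, 2.42 in MyoD and 88.7 in NeuroD2, with 9.15 in the chimera, 15.7 in WC, 16.3 in WCS, 26.7 in the chimera at MOI 100 and 54.2 in WCS at MOI 100. It was 16.3-fold higher (14.2 to 18.8) in NeuroD2 and 2.25-fold lower (1.7 to 3.03) in MyoD than in GFP, and NeuroD2 was 36.7-fold higher (28.6 to 47.9) than MyoD. Cacna1d stood at 0.705 CPM in GFP, 7.79 in MyoD, 2.19 in the chimera, 2.5 in WC, 3.33 in WCS and 14.2 in NeuroD2, and at MOI 100 at 5.9 in the chimera and 10.4 in WCS. It was 20.1-fold higher (13.8 to 30.4) in NeuroD2 and 11.1-fold higher (7.47 to 16.9) in MyoD.

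Levels of different genes were compared per kilobase of annotated exon (GENCODE on GRCm38, a newer build than the mm9 of the reads). Summed over the 30 potassium channel genes, the level was 22.8 CPM per kb in GFP, 22.4 in MyoD, 25.4 in the chimera, 31.7 in WC, 30.4 in WCS and 58.9 in NeuroD2, and at MOI 100 it was 47.2 in the chimera and 55.8 in WCS. Kcnh2 was the leading potassium channel gene in every library except NeuroD2, with 47.6% of the sum in GFP and 64.2% in MyoD. In NeuroD2 the lead passed to Kcnd3 with 27.4%, ahead of Kcnh2 with 19.6% and Kcnh1 with 11.5%. The 10 sodium alpha genes summed to 2.04 CPM per kb in GFP, 3.72 in MyoD and 12 in NeuroD2. Scn8a led with 59.3% in GFP, and in NeuroD2 Scn8a with 38.4% and Scn3a with 36.2% were close. The sum of the 9 calcium channel genes was 6.4 CPM per kb in GFP, 16.5 in MyoD and 20.8 in NeuroD2. In MyoD 87.6% of it came from Cacna1h, whereas in NeuroD2 Cacna1h with 29.9%, Cacna1b with 23.5% and Cacna1c with 20.1% shared it. Cacna1s, at 31.4 CPM in MyoD and 0.769 CPM in NeuroD2, is outside the symbol rule and not in this sum. Cacna1g led in GFP with 54.2%, and Cacna1b led in WCS at MOI 100 with 39.6%.

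**Figure D3:**
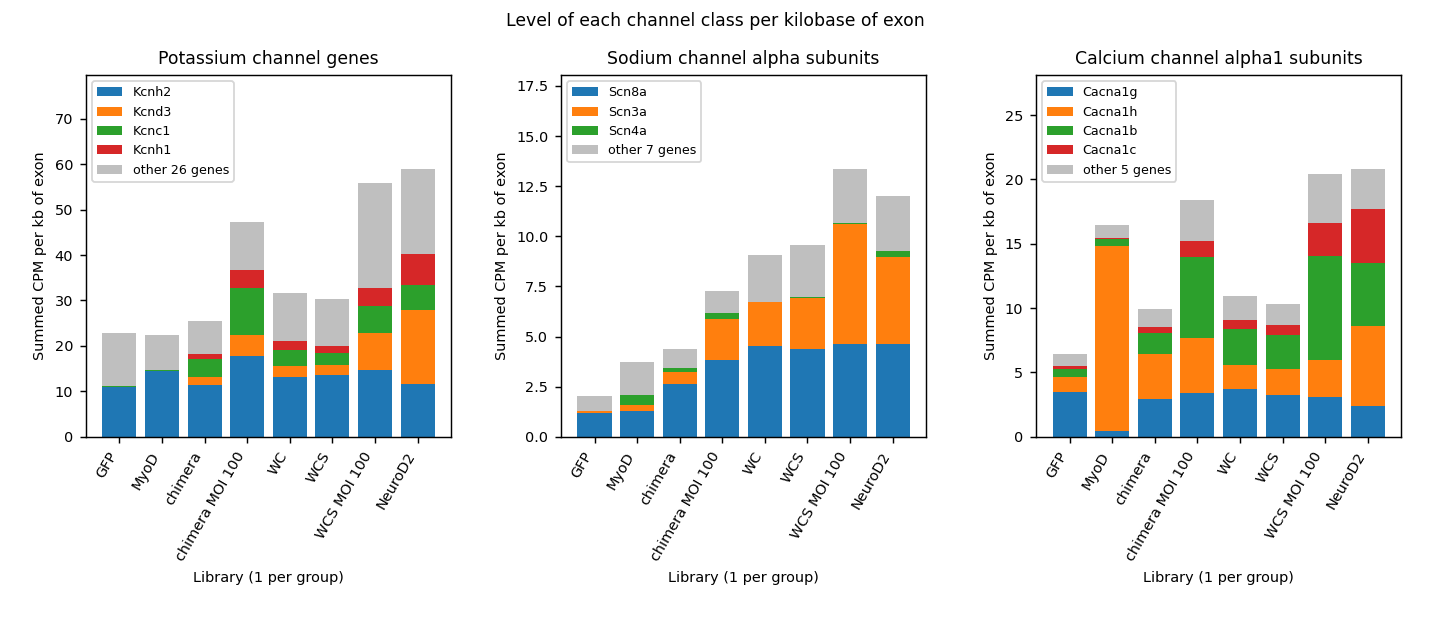
Stacked bars of summed CPM per kilobase of exon for the potassium channel genes, the sodium channel alpha subunits and the calcium channel alpha1 subunits in each of the 8 libraries, with some of the leading genes in colour and the rest in grey. The calcium bar of MyoD (16.5) is mostly Cacna1h, while that of NeuroD2 (20.8) is divided among Cacna1h, Cacna1b and Cacna1c. Cacna1s, outside the symbol rule, is not in the bars.

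The chimera, MyoD with the bHLH segment of NeuroD2, was compared with GFP, NeuroD2 and MyoD, 1 library against 1. Myod1 was at 116 CPM in the chimera and 296 in MyoD, and Rn7s6 at 0.565 and 13.5 CPM. The part of these differences in the numbers below was not tested. Without an MOI label the chimera had 5 members at least 4-fold higher than GFP (Kcnc1, Kcnd3, Kcnh1, Scn3a and Cacna1i) and 0 lower, where 2.85% and 0.876% of all genes met the rule. Kcnd3 was 18.3-fold higher (13.1 to 26.4) and Kcnc1 30.7-fold higher (23.1 to 41.7) than GFP. Against NeuroD2 the chimera had 0 members higher and 15 lower by 4-fold or more, where 0.869% and 1.98% of all genes met the rule. The number lower was 7 with a pseudocount of 2 CPM and 4 with an 8-fold rule. Cacna1c was 9.69-fold lower (8.49 to 11.1) and Kcnd3 9.4-fold lower (8.52 to 10.4) than in NeuroD2. Against MyoD it had 6 members at least 4-fold higher (Kcna5, Kcnc1, Kcnd3, Kcnh1, Kcnh3 and Cacna1g), where 1.89% of all genes were. Cacna1h, 4.16-fold lower (3.87 to 4.48) than in MyoD, was the 1 member lower, where 2.13% of all genes were, and with total counts as the scaling that number was 0. The neuron markers moved beside these genes, with a sum of 740 CPM in the chimera against 3470 CPM in NeuroD2.

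With the MOI 100 label the chimera had 15 members at least 4-fold higher than GFP and 1 lower, where 6.56% and 3.07% of all genes met the rule. The number higher was 8 with a pseudocount of 2 CPM and 9 with an 8-fold rule. Kcnc1 was 79.9-fold higher (60.4 to 108) and Cacna1b 10.5-fold higher (9.22 to 12.1) than GFP. Myod1, which includes the delivered transcript, was at 116 CPM without the label and 555 CPM with it. Against the chimera without the label, 2 members, Cacna1e among them, were at least 4-fold higher and 0 lower, where 0.856% and 0.253% of all genes met the rule. Cacna1e was 7.4-fold higher (4.95 to 11.5).

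WC had 8 members at least 4-fold higher than GFP and 1 lower, where 3.22% and 0.765% of all genes met the rule. WCS had 9 and 1, against 3.15% and 1.14%. Kcnb2 and Cacna1b were past the rule in both mutants and not in the chimera without an MOI label, and Cacna1e in WCS. Whether these counts differ from the 5 of the chimera was not tested. With an 8-fold rule WC had 6, WCS 4 and the chimera 4 higher than GFP, and with a pseudocount of 2 CPM 6, 5 and 3. WCS at MOI 100 had 19 higher and 1 lower, against 6.74% and 3.64% of all genes, and 11 higher with a pseudocount of 2 CPM or an 8-fold rule. Scn3a was 102-fold higher (71.4 to 152) than GFP in that library. Directly against the chimera, WC had 2 members at least 4-fold higher, Kcnq3 among them, where 0.584% of all genes were, and WCS had 1, where 0.746% were. No member was 4-fold lower in either, against 0.785% and 1.04% of all genes. Between WCS and WC 0 of 43 members were at least 4-fold apart, where 0.00649% of all genes were higher and 0.0259% lower. WCS remained below NeuroD2 for 6 members (Kcna1, Kcna6, Kcnd2, Kcnd3, Kcnh1 and Cacna1c) and above it for 0, where 0.863% and 0.214% of all genes met the rule.

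A test was possible for WCS against the chimera, because both were measured with and without the MOI 100 label. In these 4 libraries the M-current gene Kcnq3 and the embryonic sodium channel gene Scn3a rose with WCS, and the skeletal muscle form Scn4a, Kcnq1 and Cacna1h fell. Of 42 members tested, 11 rose and 5 fell at an edgeR adjusted p of at most 0.05, where 5.84% and 5.49% of 16079 genes did. The median log2 fold change was 0.72 over members and -0.01 over all genes. The fit leaves 1 residual degree of freedom, so its p-values measure how alike the difference was at both MOI labels and not the spread between cultures. Without the MOI term, or with any 1 of the 4 libraries left out and no MOI term, 0 members passed.

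Among the genes that rose were Kcnb2, Kcnd3, Kcnh8, Kcnq3, Scn2b, Scn3a, Cacna1c and Cacna1e. Scn3a rose by 1.76 on the log2 scale (edgeR adjusted p = 0.00096), from 7.91 to 31.4 CPM without the label and from 25.5 to 74.6 CPM at MOI 100. Kcnq3 rose by 1.76 (edgeR adjusted p = 0.0068), from 3.24 to 8.42 CPM and from 5 to 21.4 CPM, and Kcnb2 by 2.2 (edgeR adjusted p = 0.0043). Kcnd3 rose by only 0.6 (edgeR adjusted p = 0.044), close to the threshold, with WCS 1.34-fold higher (1.19 to 1.52) without the label and 1.7-fold higher (1.59 to 1.82) at MOI 100.

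The genes that fell were Scn4a by 2.02 on the log2 scale (edgeR adjusted p = 0.024), Kcnq1 by 1.92 (edgeR adjusted p = 0.023), Kcnh6 by 1.58 (edgeR adjusted p = 0.039), Kcnc1 by 0.71 (edgeR adjusted p = 0.012) and Cacna1h by 0.68 (edgeR adjusted p = 0.027). Scn4a, Kcnq1 and Cacna1h were the 3 of the 43 members with MyoD as their highest library. Over all 15419 genes MyoD was the highest library for 17.2%. Kcnc1, a channel gene of fast-firing neurons, went from 37.4 to 23.7 CPM and from 97.1 to 57.2 CPM. With the DESeq2 Wald test 2 members fell in place of 5. Skeletal muscle markers moved beside these genes, from 578 to 17.2 CPM without the label and from 993 to 18.9 CPM at MOI 100, and their part in the fall was not tested. Neuron markers rose beside the others, with 9 of 10 passing the same edgeR test. Kcna6 did not pass (edgeR adjusted p = 0.22), with WCS 7.84-fold higher (6.32 to 9.81) at MOI 100 and a ratio of 0.914 (0.652 to 1.28) without the label. In the pair at MOI 100, 3 members, Kcna6 and Kcnb2 among them, were at least 4-fold higher in WCS and 0 lower. Of all genes 0.72% and 1.58% were. In the chimera and WCS of that pair, Rn7s6 was at 1.21 and 1.28 CPM and Myod1 at 555 and 857 CPM. Without the label Rn7s6 was at 0.565 and 14.4 CPM and Myod1 at 116 and 77.3 CPM. The part of these differences was not tested.

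**Figure D4:**
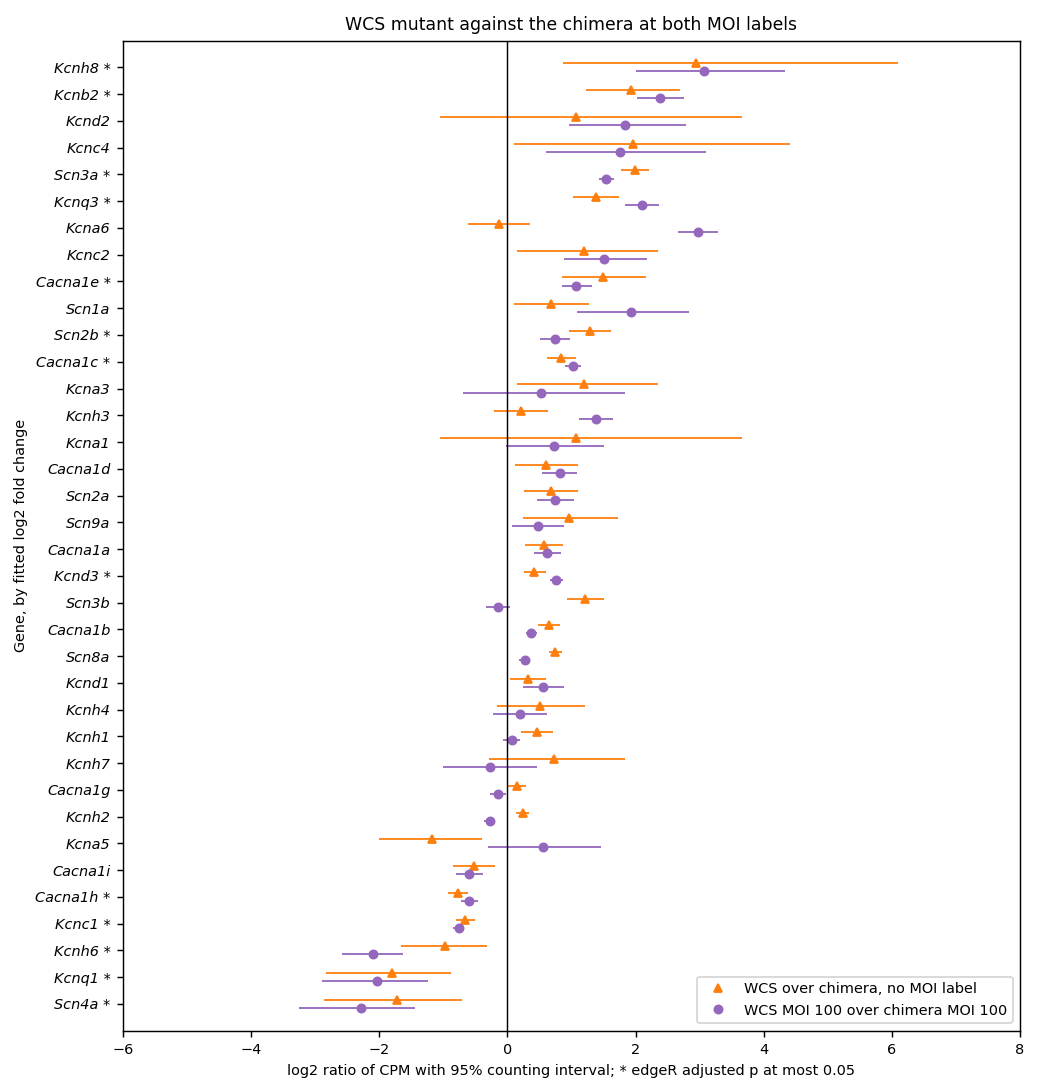
Log2 ratio of CPM of WCS over the chimera without an MOI label (triangles) and at MOI 100 (circles) with 95% counting intervals, for 36 of the 42 channel genes tested in the 4 libraries, ordered by fitted log2 fold change; an asterisk marks an edgeR adjusted p of at most 0.05. Kcnb2, Scn3a and Kcnq3 lie to the right in both pairs, and Scn4a, Kcnq1 and Kcnh6 to the left.

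The MOI label itself went with higher channel gene levels. In the same fit 22 of 42 members rose and 0 fell between no label and MOI 100, where 13.4% and 12.2% of all genes did. At an unadjusted p under 0.05, 28 members were higher and 0 lower by edgeR, but the share of all genes at that threshold was not computed. The median log2 fold change was 1.09 over members and 0.01 over all genes. Cacna1b rose by 1.76 on the log2 scale (edgeR adjusted p = 9e-04), Kcnd3 by 1.66 (edgeR adjusted p = 0.0011) and Kcnc1 by 1.32 (edgeR adjusted p = 0.0012). Cacna1c, Cacna1e, Scn3a and Kcnh1 rose by 1.64, 2.66, 1.45 and 1.54. Kcnh2 and Cacna1g, both abundant in GFP, did not pass, with 0.36 and 0.07. Kcnd1 did not pass either, with a fitted value of -0.53. Without the construct term 0 members rose. The 10 neuron markers all rose in the same fit and the 5 pluripotency markers all fell, and Myod1 rose as well. WCS at MOI 100 over WCS had 3 members at least 4-fold higher, Kcna6 and Cacna1e among them, and 0 lower, against 0.908% and 0.558% of all genes.

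Genes of subunits, partners and relatives of these channels were counted from lists made by family or known role, with the rule and backgrounds given above. Among 9 measured auxiliary subunits of potassium channels, 2 were at least 4-fold higher in NeuroD2 than in GFP and 1 in MyoD. Kcnip1, a cytoplasmic subunit of the Kcnd channels, went from 0.0973 CPM in GFP to 12.7 in NeuroD2, and Dpp6, a transmembrane subunit of the same channels, from 11.8 to 171 CPM. Kcnip2 had its highest level elsewhere, at 1.56 CPM in GFP, 22 in MyoD, 38.1 in the chimera, 22.7 in WC, 16.4 in WCS and 6.71 in NeuroD2, and at MOI 100 at 80.1 in the chimera and 23.8 in WCS. It fell with WCS against the chimera by 1.49 on the log2 scale (edgeR adjusted p = 0.002), while Dpp6 rose by 1.51 (edgeR adjusted p = 0.0036). The order of the libraries thus differed between Kcnd3 and Kcnip2. Of 6 measured silent potassium channel subunits, 2 were at least 4-fold higher in NeuroD2, and 0 in MyoD. Kcng1 was at 6.57 CPM in NeuroD2 against 1.17 in GFP and Kcns2 at 3.46 against 0.0243 CPM.

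**Figure D5:**
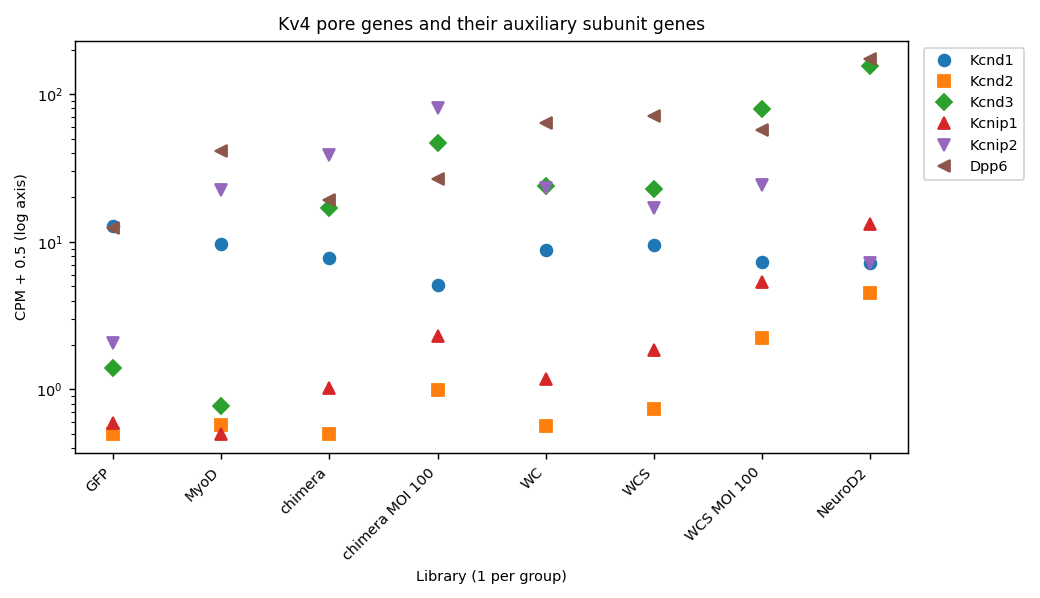
CPM + 0.5 on a log axis for the Kcnd pore genes and 3 auxiliary subunit genes in each library, 1 point per gene and library. Kcnd3 (green diamonds) is highest in NeuroD2 at 155 CPM, whereas Kcnip2 (purple triangles) is highest in the chimera at MOI 100 at 80.1 CPM; levels of different genes are not scaled for length here.

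Of 18 measured genes of the calcium channel auxiliary list, Cacna1s included, 2 (Cacnb3 and Stac2) were at least 4-fold lower in MyoD than in GFP and 0 in NeuroD2. At least 4-fold higher than in GFP were 5 in NeuroD2 and 5 in MyoD. Cacna2d1, the alpha2delta subunit that brings the pore to the surface, was in both sets, at 246 CPM in MyoD and 247 CPM in NeuroD2 against 6.54 CPM in GFP. The skeletal muscle pore gene Cacna1s was at 31.4 CPM in MyoD and 0.769 CPM in NeuroD2, and its partner Stac3 at 56.2 and 0.559 CPM. Both sets also held Cacng genes, listed by family name, whose role in these channels was not measured. Cacng2, a neuronal member of the gamma family, was at 6.78 CPM in NeuroD2 and 0.0384 CPM in MyoD. Among 9 measured sodium channel partners and axon initial segment genes, 4 were at least 4-fold higher in NeuroD2 and 1 lower in MyoD. The median log2 ratio of NeuroD2 over GFP in this list was -0.07. Nfasc, a gene of the initial segment, was at 151 CPM in NeuroD2 and 14.2 in MyoD against 21.4 in GFP. Cntn1 was at 52.8, 0.922 and 6.01 CPM in these libraries. Sptbn4 was not called in either, at 6.43 CPM in NeuroD2, 2.84 in MyoD and 7.9 in GFP. Among 26 other potassium and HCN channel genes, 7 were at least 4-fold higher in NeuroD2 and 3 in MyoD. Hcn4, a pacemaker channel gene, was at 133 CPM in NeuroD2, 18.5 in MyoD and 16.5 in GFP, and Kcnk10 at 11.6, 0.0768 and 0.462 CPM. Kcnn3 and Kcnk13 were highest in MyoD, at 18.4 and 30.2 CPM, against 3.49 and 1.57 CPM in NeuroD2.

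Rest, a repressor known to silence neuronal genes, ion channel genes among them, outside neurons, stood at 101 CPM in GFP, 113 in MyoD, 88.5 in the chimera, 66.9 in WC, 66.1 in WCS and 56.2 in NeuroD2, and at MOI 100 at 65.8 in the chimera and 40.3 in WCS. It fell with WCS against the chimera and with the MOI 100 label in the edgeR fit. Srrm4, a splicing factor known to inactivate the Rest transcript, stood at 2.04 CPM in GFP, 2.23 in MyoD, 62.6 in the chimera, 92.8 in WC, 81.1 in WCS and 127 in NeuroD2, and at MOI 100 at 185 in the chimera and 216 in WCS. NeuroD2 was 62.3-fold higher (50.2 to 78.3) than GFP, while the MyoD to GFP ratio was 1.09 (0.766 to 1.54). The cofactor genes Rcor1, Rcor2 and Rcor3 were within 4-fold of GFP in both MyoD and NeuroD2. Whether these genes have a part in the channel gene levels was not tested.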

How the data were processed

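RNA from 8 P19 cultures was measured as poly(A)-selected RNA-seq on an Illumina HiSeq 2500, per the labels' protocols, which name RNeasy or Trizol for extraction without saying which was used for which library. The deposited table holds raw counts per Ensembl gene and library. CASAVA 1.8.2, TopHat2 2.0.8 and the mm9 build are listed in the submitters' processing notes. Not given in the sources are the counting tool, annotation and strand setting, so antisense reads and reads of paralogs may be shared between genes. Poly(A) selection and counting per gene do not separate isoforms, or delivered from endogenous transcripts. Symbols came from a GENCODE table by Ensembl identifier, for 32850 of 37558 genes (87.5%). Library totals include genes without a symbol, 1.24% to 1.53% of the counts.

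CPM were computed from the deposited counts after TMM scaling over the 8 libraries (edgeR 4.0.16, factors 0.9348 to 1.085). With 1 library per group, 17 comparisons of single libraries had no test: a gene was called at 4-fold or more on log2(CPM + 0.5), with a mean of at least 0.5 CPM. Ratios of CPM carry exact conditional binomial (Clopper-Pearson) 95% intervals, and a count of 0 was set to a floor of 3 counts per library. For the chimera and WCS at both settings of the MOI label, the model had terms for construct and for the label, and edgeR's quasi-likelihood test was applied (filterByExpr, Benjamini-Hochberg adjustment over all genes tested, threshold 0.05). Of the members, 42 were tested, and 11 did not pass that filter. The fit was tested on simulated data.

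Members with 5 CPM or more in a library are given in all libraries, those at 1 to 5 CPM by their highest library, and from other lists the 2 genes with the largest NeuroD2 or MyoD to GFP difference in either direction on log2(CPM + 0.5) among those at 5 CPM or more in a library. Some members are not reported individually here, and the plots leave them out, but counts and sums over the members include them. Members, lists and markers were chosen with earlier results of these data known. Exon lengths are from GENCODE on GRCm38 and sequences from RefSeq (GRCm38.p6). Software was R 4.3.3 with DESeq2 1.42.0 as an alternative test, and Python 3.11.15 with pandas 2.3.3, numpy 2.4.6, matplotlib 3.10.9 and scipy 1.17.1.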

Additional observations from a re-analysis of the deposited data

Results flagged for a closer look

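Kcnh2 and Cacna1g, both among the more abundant channel genes of the GFP library, differed in opposite directions between WCS and the chimera at the 2 settings of the MOI label. The Kcnh2 ratio of WCS over the chimera was 1.18 without the label and 0.826 at MOI 100. The Cacna1g ratio was 1.11 without the label and 0.905 at MOI 100. With the TMM scaling each of the 4 counting intervals lay to 1 side of a ratio of 1. With total counts the Cacna1g ratios were 1.09 (0.996 to 1.2) and 0.958 (0.877 to 1.05), so both intervals held 1, while the Kcnh2 ratios were 1.16 (1.09 to 1.25) and 0.874 (0.825 to 0.926). For both genes the difference between the settings was not tested, since each setting has 1 library of each construct.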

How the results depend on the processing

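Each group had 1 library, so the intervals cover counting error only, and the pseudocount and the fold rule moved many of the numbers of members past 4-fold. With a pseudocount of 2 CPM the number at least 4-fold higher was 1 in MyoD over GFP, 3 in the chimera, 8 in the chimera at MOI 100, 5 in WCS and 11 in WCS at MOI 100 over GFP, 12 in NeuroD2 over MyoD, 0 over the chimera in WC and 0 in WCS, and 1 in the chimera at MOI 100 over the chimera. With that pseudocount the number lower was 1 in MyoD over GFP, 0 in NeuroD2, the chimera at MOI 100, WC, WCS and WCS at MOI 100 over GFP and in the chimera over MyoD, 7 in the chimera over NeuroD2 and 2 in WCS over NeuroD2. With an 8-fold rule the number higher was 1 in MyoD, 9 in the chimera at MOI 100, 4 in WCS and 11 in WCS at MOI 100 over GFP, 11 in NeuroD2 and 3 in the chimera over MyoD, 0 in WC and WCS over the chimera, 0 in WCS at MOI 100 over the chimera at MOI 100, 0 in the chimera at MOI 100 over the chimera and 1 in WCS at MOI 100 over WCS. With that rule 4 were lower in the chimera over NeuroD2 and 0 in each of the other comparisons that had lower members. Where the higher library had to reach 5 CPM, 2 members were higher in MyoD over GFP, and 0 were lower in NeuroD2, the chimera at MOI 100, WC, WCS or WCS at MOI 100 over GFP. With DESeq2 size factors 1 member was lower in the chimera over GFP, and with total counts 0 in WC over GFP and 0 in the chimera over MyoD. Without the filter on low values all 34 numbers were within 1.5 times of those reported. Total counts moved the median log2 ratio of all genes by 0.14 in NeuroD2, 0.12 in the chimera at MOI 100 and 0.2 in WCS at MOI 100 over GFP, by 0.12 in WCS at MOI 100 over WCS and by 0.13 in NeuroD2 over MyoD, and moved levels by -6.72% to 8.89%.

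For WCS against the chimera, 2 members fell with the DESeq2 Wald test. Without the MOI term 0 rose and 0 fell, and with 1 of the 4 libraries left out and no MOI term the numbers were 0 to 0 in both directions. Without the chimera at MOI 100 the Kcnc1 value turned to 0.13. Without WCS at MOI 100 the values of Cacna1c, Cacna1e and Kcnd3 turned to -0.12, -0.57 and -0.49. In fits with a library left out the construct is no longer balanced over the MOI label, so the difference between the labels enters the contrast. For the MOI label, 0 rose without the construct term. The reported fit already compares WCS and the chimera within each setting of the MOI label. The labels give no replicate numbers to use as a further block.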
